A study of Homo sapiens with 8 samples.

Results

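The 6 megakaryocyte lineage genes ITGA2B, ITGB3, THBS1, CD9, FLI1 and RUNX1, were described in K562 cells that carried SF3B1 with the K700E substitution or as wild type. These 6 of 21728 genes with a junction read were chosen from values of these same libraries, so their levels and their shares of alternative junctions are a description and carry no test. A gene's level is its number of uniquely mapped reads over splice junctions annotated to it in GENCODE release 29, scaled to 1000000 uniquely mapped junction reads of the library (CPM). An alternative junction is any junction of the gene outside the introns of its reference transcript, the annotated transcript with the most reads.

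K562 is an established human erythroleukaemia line, in which erythroid and megakaryocytic programmes can both be induced. SF3B1, a subunit of the U2 snRNP, takes part in choosing the branch point of an intron, and K700E is its recurrent hotspot substitution in myelodysplastic syndromes. The K700E cells were sampled at day 4 and day 8, and the wild-type (WT) cells at the same days, with 2 libraries per group and 8 in all. In all 8 libraries the protocol gives induction of the modified allele with doxycycline at 1 µg/ml, and the labels state neither the construct nor whether the lines are clones or the replicates separate cultures. Statistics between libraries therefore measure only the spread between these libraries, which may be technical.

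Megakaryocytes are the large marrow cells that shed platelets. The products of ITGA2B and ITGB3 pair as integrin αIIbβ3 (CD41/CD61), the platelet receptor for fibrinogen, and CD9 is a tetraspanin that sits beside integrins in the membrane. THBS1 encodes thrombospondin-1, stored in platelet granules. FLI1, an ETS-family factor, and RUNX1, a runt-domain factor, bind and activate megakaryocyte promoters.

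The libraries held between 49338071 and 77750812 uniquely mapped junction reads. Cryptic acceptor use, the median share of reads on an acceptor 10 to 30 nt upstream of the usual one over 28 or 29 genes known to respond to SF3B1 hotspot substitutions, was 18.7% and 18.9% in the K700E libraries of day 4, against 1.20% and 1.80% in the WT libraries of day 4. The day 8 use was 1.89% and 17.0% in the libraries labelled K700E, against 0% and 18.5% in those labelled WT. Replicate 1 of each day 8 group thus had low use and replicate 2 high use, whichever the label, and no library was moved to another group. The libraries labelled WT at day 8 also listed few rare junctions, with 4.47% and 6.26% of unannotated junctions supported by a single read, against 28.5% to 42.3% in the other libraries. The labels call the cells epithelial. Of 10 epithelial markers 4 stayed under 1 CPM in every library, among them CDH1, CLDN4 and GRHL2 with at most 0.0811. EPCAM, KRT8, KRT18 and KRT19 were expressed. The 10 epithelial markers together summed to between 448 and 2649 CPM, and 23 erythroid markers to between 1742 and 3278 CPM. In K700E day 8 replicate 2 the epithelial sum, 2649, was above the erythroid sum, 2019.

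ITGA2B (ENSG00000005961.18, chromosome 17, 44372180 to 44389505 on hg38, minus strand) was far higher in the K700E than in the WT libraries of day 4. It had 91.5 and 91.1 CPM in the K700E libraries of day 4, against 10.3 and 17.8 in the WT libraries. The groups did not overlap, and the WT libraries lay further apart from each other than the K700E libraries did. The means were 91.3 ± 0.324 in K700E and 14.0 ± 5.26 in WT (SD, n = 2 each), a 6.50-fold difference. At day 8 ITGA2B had 32.2 and 487 CPM in the libraries labelled K700E, against 95.5 and 69.6 in those labelled WT. One library labelled K700E lay below both WT libraries and the other above both, so the groups overlapped. The ratio of the day 8 means, 3.15, rests on K700E replicate 2. Without it the remaining K700E library was at 0.391 of the WT mean.

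ITGB3 (ENSG00000259207.7, chromosome 17, 47253846 to 47311816, plus strand) followed the same order. It had 16.1 and 12.4 CPM in the K700E libraries of day 4, against 3.28 and 2.41 in the WT libraries, so again the groups did not overlap. The means were 14.2 ± 2.65 in K700E and 2.84 ± 0.619 in WT (SD, n = 2 each), a 5.01-fold difference. At day 8 the values were 5.94 and 88.8 CPM in the libraries labelled K700E, against 19.3 and 5.76 in those labelled WT, and the groups overlapped. The ratio of the day 8 means was 3.78 with both K700E libraries and 0.474 without replicate 2. ITGB3 shares 13 of its 14 introns, with 91.2% of its annotated reads, with the annotated gene AC068234.1, and these reads cannot be assigned to 1 of the 2 genes. All 14 introns are counted here.

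**Figure D1:**
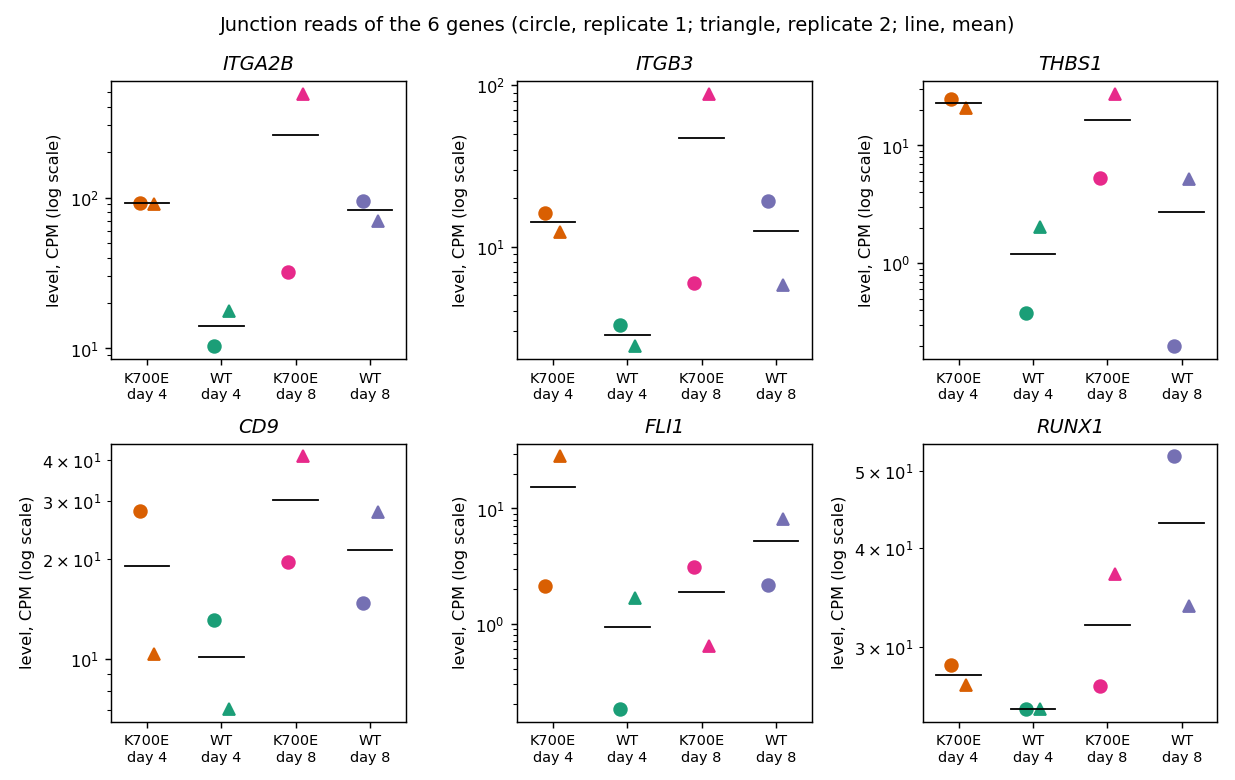
Level in CPM (log axes, one scale per gene) of the 6 genes in each library, with circles for replicate 1, triangles for replicate 2 and a line for the mean of the 2 libraries. K700E libraries lie above WT libraries at day 4 for ITGA2B, ITGB3, THBS1, FLI1 and, by a small margin, RUNX1, and at day 8 K700E replicate 2 is the highest library for ITGA2B, ITGB3, THBS1 and CD9.

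The integrin pair moved together across the 8 libraries. K700E day 8 replicate 2 was the highest library for both genes, followed in both by WT day 8 replicate 1. On log2 CPM, Pearson's r between the 2 genes was 0.95 and Spearman's rho 0.95 over 8 libraries, and r was 0.91 over the 6 libraries left without K700E day 8 replicate 2 and WT day 4 replicate 1, the 2 farthest from the ITGA2B median. These points share their libraries and depths, and the value is a description. Per intron, ITGB3 reads were 0.365 and 0.280 of ITGA2B reads in the K700E libraries of day 4, against 0.659 and 0.282 in the WT libraries. At day 8 the ratio was 0.383 and 0.378 in the libraries labelled K700E, against 0.419 and 0.172 in those labelled WT. ITGA2B mRNA was thus spliced at the higher level per intron in each of the 8 libraries.

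Reads covered the whole of both transcripts. All 29 reference introns of ITGA2B had reads in every library. In K700E day 4 replicate 1 they ranged from 92 to 345 reads per intron, and in WT day 4 replicate 1 from 9 to 39. The higher ITGA2B level of K700E libraries at day 4 was present at each intron, from the first, with 247 and 195 reads in K700E against 21 and 36 in WT, to the last, with 129 and 82 reads in K700E against 11 and 23 in WT. In ITGB3 the last reference intron, the only 1 of the 14 not shared with AC068234.1, had 108 and 72 reads in the K700E libraries of day 4, against 14 and 16 in the WT libraries. At day 8 that intron had 24 and 471 reads in the libraries labelled K700E, against 125 and 34 in those labelled WT. It thus gave the same order of groups as the shared introns at day 4.

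**Figure D2:**
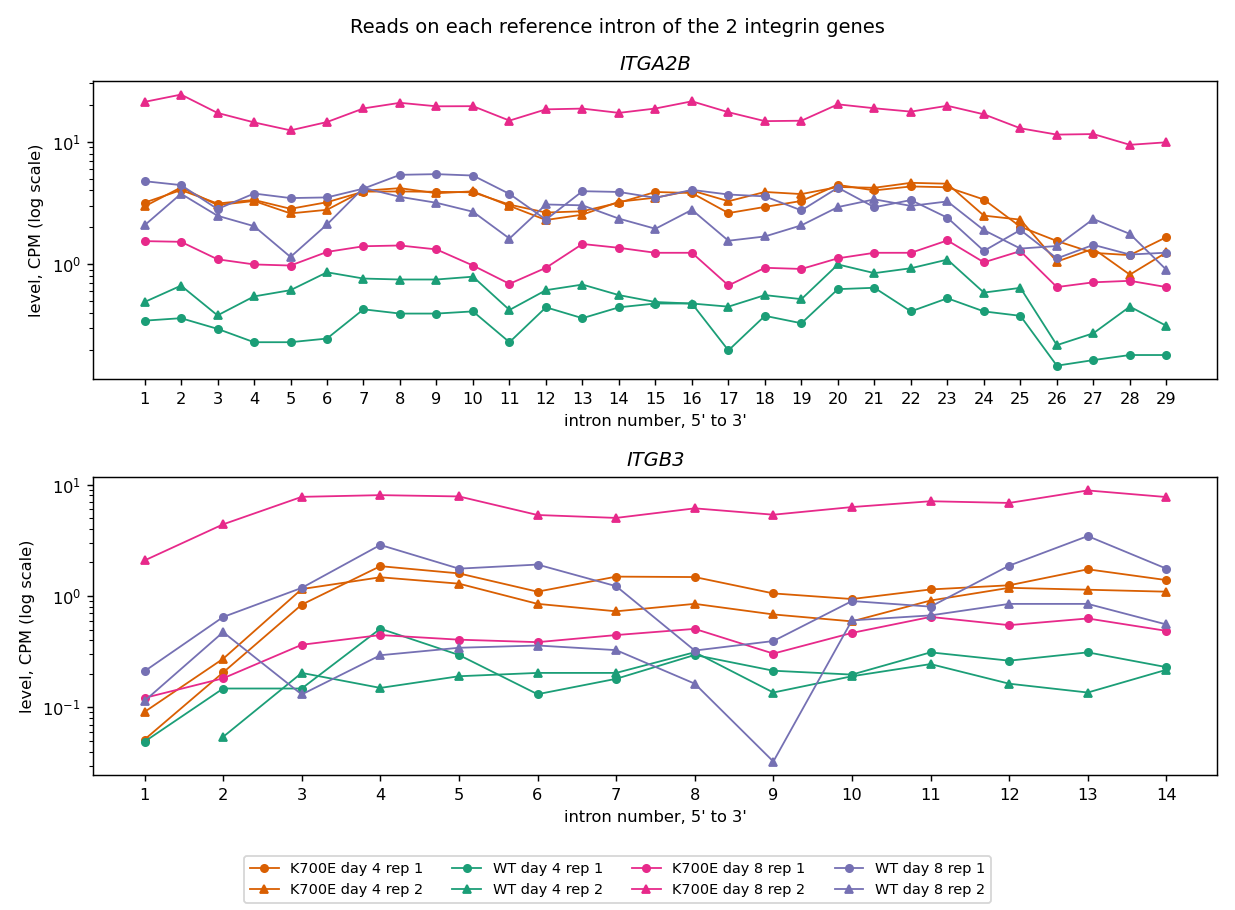
CPM on each reference intron (log axes), numbered from the 5′ end, of ITGA2B and ITGB3, with one line per library; introns with 0 reads are left out. The K700E day 8 replicate 2 line lies above the other 7 along both genes, and the ITGA2B lines of the K700E libraries of day 4 lie above those of the WT libraries of day 4 at every intron.

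THBS1 (ENSG00000137801.10, chromosome 15, 39581079 to 39599466, plus strand) was low in the WT libraries and far higher in the K700E libraries of day 4. It had 24.8 and 20.8 CPM in the K700E libraries, against 0.378 and 2.01 in the WT libraries, and the groups did not overlap. The means were 22.8 ± 2.86 in K700E and 1.20 ± 1.16 in WT (SD, n = 2 each), a 19.1-fold difference. The WT libraries differed 5.33-fold from each other, and the ratio was 11.3 without WT replicate 1 and 60.4 without WT replicate 2. At day 8 THBS1 had 5.29 and 27.5 CPM in the libraries labelled K700E, against 0.197 and 5.23 in those labelled WT. The lower K700E library and the higher WT library were nearly equal, and the ratio of means, 6.05, was 1.95 without K700E replicate 2. The value of 0.197 rests on 14 reads, 7 on each of 2 introns, while 20 of the 21 reference introns had reads in WT day 4 replicate 2.

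CD9 (ENSG00000010278.13, chromosome 12, 6199715 to 6238271, plus strand) varied as much within groups as between them. It had 28.0 and 10.3 CPM in the K700E libraries of day 4, against 13.1 and 7.03 in the WT libraries, and the groups overlapped. The means were 19.2 ± 12.5 in K700E and 10.1 ± 4.31 in WT (SD, n = 2 each), a ratio of 1.90 that was 1.02 without K700E replicate 1. At day 8 CD9 had 19.6 and 41.1 CPM in the libraries labelled K700E, against 14.7 and 27.9 in those labelled WT, and replicate 2 was the higher library in both groups.

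FLI1 (ENSG00000151702.16, chromosome 11, 128686535 to 128813267, plus strand) was set by single libraries. It had 2.11 and 28.4 CPM in the K700E libraries of day 4, against 0.181 and 1.67 in the WT libraries. The groups did not overlap, but the lower K700E library was close to the higher WT library. The means were 15.2 ± 18.6 in K700E and 0.927 ± 1.06 in WT (SD, n = 2 each), a ratio of 16.5 that was 2.28 without K700E replicate 2. At day 8 the values were 3.12 and 0.640 CPM in the libraries labelled K700E, against 2.17 and 8.18 in those labelled WT, and the groups overlapped. The WT day 4 replicate 1 value rests on 11 reads, and in WT day 8 replicate 1 the reads of the 8 reference introns took the values 0, 13 and 51 and no others.

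RUNX1 (ENSG00000159216.18, chromosome 21, 34787801 to 36004667, minus strand) changed least. It had 28.4 and 26.8 CPM in the K700E libraries of day 4, against 25.0 and 25.0 in the WT libraries, a 1.10-fold difference of means. With TMM factors, which scale for the composition of each library, the order was lost, with 28.8 and 27.7 normalised CPM in K700E against 27.0 and 27.8 in WT. At day 8 RUNX1 had 26.7 and 37.1 CPM in the libraries labelled K700E, against 52.2 and 33.7 in those labelled WT, and the groups overlapped. Across all 8 libraries its highest value was 2.09 times its lowest, against 47.2 times for ITGA2B, 36.9 for ITGB3, 140 for THBS1, 5.84 for CD9 and 157 for FLI1.

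In all, 5 of the 6 genes had both K700E libraries above both WT libraries at day 4 in CPM, where 35.2% of 13991 tested genes were higher in this way and 20.7% lower. In TMM-normalised CPM it was 4 of 6, without RUNX1, where 27.5% of genes were higher and 27.3% lower. At day 8 only THBS1 of the 6 was ordered in this way, by a margin of 5.29 against 5.23 CPM, where 16.5% of 13990 tested genes were higher and 15.2% lower. The genes were chosen on this contrast, so these counts are a description.

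Fitted with edgeR's quasi-likelihood model over all genes of the day 4 libraries, ITGA2B changed by 2.60 on the log2 scale (SE 0.29), ITGB3 by 2.23 (SE 0.27) with the shared introns counted, THBS1 by 4.13 (SE 0.75) and FLI1 by 3.92 (SE 1.47). CD9 changed by 0.83 (SE 0.52) and RUNX1 by 0.04 (SE 0.15). Of 13991 genes, 74 (0.529%) passed an adjusted p of 0.05, with 32 (0.229%) higher and 42 (0.3%) lower in K700E. The 6 genes were chosen on this contrast, so their fitted changes are a description and no call is read for them. At day 8 none of 13990 genes passed (0%), while 408 had an unadjusted p under 0.05 and DESeq2 called 27.

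Set against cryptic acceptor use, the genes followed different orders. THBS1 had 0.197, 0.378, 2.01 and 5.29 CPM in the libraries with 0%, 1.20%, 1.80% and 1.89% cryptic use, which are WT day 8 replicate 1, WT day 4 replicates 1 and 2 and K700E day 8 replicate 1. In the libraries with 17.0%, 18.5%, 18.7% and 18.9%, which are K700E day 8 replicate 2, WT day 8 replicate 2 and K700E day 4 replicates 1 and 2, it had 27.5, 5.23, 24.8 and 20.8. The library labelled WT with 18.5% cryptic use had about as much THBS1 as the library labelled K700E with 1.89%. For ITGA2B the library with 0% cryptic use had 95.5 CPM, above the 91.5 and 91.1 of the K700E libraries of day 4. FLI1 had 0.640 at 17.0% cryptic use in K700E day 8 replicate 2, under the 3.12 at 1.89% in K700E day 8 replicate 1. RUNX1 was highest, at 52.2, in the library with 0%. No library was regrouped by its cryptic use and no test was made on these orders.

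**Figure D3:**
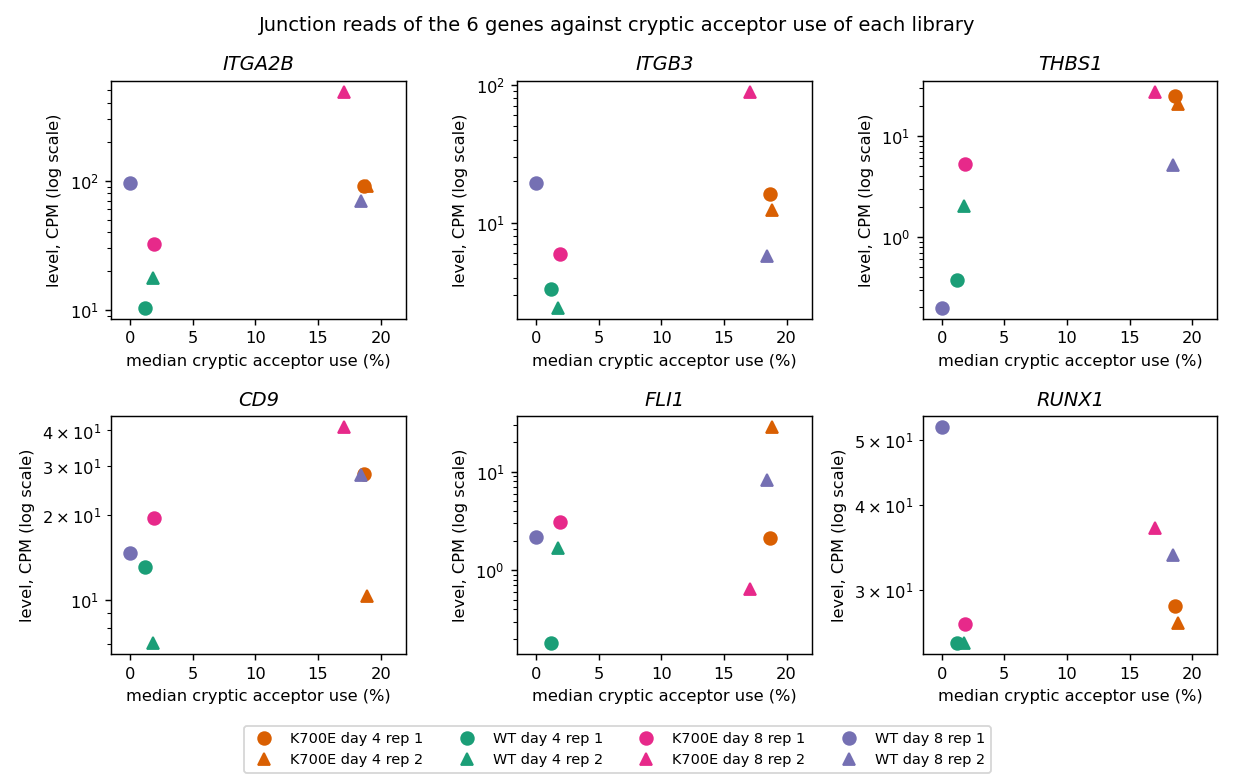
CPM of each of the 6 genes (log axes) against the median cryptic acceptor use of the library, in percent, with one point per library. Use was 0% to 1.89% in 4 libraries and 17.0% to 18.9% in the other 4, and at day 8 each label has one library in either range; ITGA2B, ITGB3 and RUNX1 were high in the library with 0% use and THBS1 was lowest there.

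Splicing within the 6 genes was looked at next, since SF3B1 K700E is known for its use of cryptic acceptors. The 6 genes had 242 junctions, of which 155 were alternative, and 39 of these had 1 read in all 8 libraries together. Only 1 of the 155, in RUNX1 and with 3 reads in all, joined an acceptor 10 to 30 nt upstream of a reference acceptor. At day 4, 18 junctions of the 6 genes, 8 in ITGA2B and 10 in RUNX1, had enough reads to enter edgeR's fit of acceptor use over all genes, and no call is read for them. Over all genes 327 of 69838 junctions passed an adjusted p of 0.05 and 5 percentage points (0.468%), with 251 (0.359%) used more and 76 (0.109%) used less in K700E. This balance depended on the tool, as limma's diffSplice called 156 used more and 140 used less.

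Alternative junctions carried 2.40% and 2.36% of the reads of the 6 genes in the K700E libraries of day 4, against 4.45% and 4.34% in the WT libraries. At day 8 the share was 3.54% and 1.37% in the libraries labelled K700E, against 2.98% and 3.04% in those labelled WT. The median of 10760 well-covered genes lay between 3.32% and 4.18% in the 8 libraries. The pooled share moved with the mix of genes, because RUNX1 had a high and even share and ITGA2B a low one. RUNX1 had 9.34% and 9.42% in the K700E libraries of day 4, against 8.88% and 8.56% in the WT libraries, and every pair of these 95% Wilson intervals overlapped. ITGA2B had 1.72% and 1.51% in the K700E libraries of day 4, against 0.317% (Wilson interval 0.0870% to 1.15%) and 1.29% (0.807% to 2.06%) in the WT libraries. ITGB3 had 0% to 0.856% in the 8 libraries, THBS1 0% to 0.517%, CD9 0% to 0.677% and FLI1 0% to 3.68%. These intervals cover counting error only.

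The most read exon-skipping event of ITGA2B removed exon 28 of its 30 exons, 102 coding bases (chromosome 17, 44374659 to 44374760, minus strand), through an unannotated junction from 44374471 to 44374997. The second removed exon 29, 117 coding bases (chromosome 17, 44374354 to 44374470), which encodes the membrane-spanning segment of the αIIb chain, through an annotated junction. Both lengths are multiples of 3. Their GENCODE release 29 transcript sequences are shown because the junction reads turn on these exons; capitals mark the exon and lower case the 20 bases of the neighbouring exons that the spliced transcript joins to it.
ITGA2B exon 28: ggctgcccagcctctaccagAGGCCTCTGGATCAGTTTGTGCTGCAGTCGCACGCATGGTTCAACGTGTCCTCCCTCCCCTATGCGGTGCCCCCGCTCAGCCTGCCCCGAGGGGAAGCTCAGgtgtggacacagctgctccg
ITGA2B exon 29: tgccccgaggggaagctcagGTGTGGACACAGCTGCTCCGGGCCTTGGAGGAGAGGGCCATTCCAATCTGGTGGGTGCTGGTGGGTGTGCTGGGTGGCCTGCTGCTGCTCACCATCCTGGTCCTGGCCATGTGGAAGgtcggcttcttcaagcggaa

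Exon 28 was skipped in 22.3% (Wilson interval 15.8% to 30.5%) and 22.8% (15.4% to 32.4%) of spliced transcripts in the K700E libraries of day 4, from 27 and 21 skipping reads. The WT libraries of day 4 had 0 skipping reads each, out of about 10 and 26 informative reads, which allows up to 27.8% and 12.9% at the upper Wilson bound. The upper bound of WT replicate 1 lies above both K700E values, so depth there was too low to set a useful bound. That of WT replicate 2 lies below both K700E intervals on this measure, but the separation depends on the denominator. As a share of all reads from the same donor, WT replicate 2 had 0 of 20 reads, with an upper Wilson bound of 16.1%. That bound lies above the lower bound of K700E replicate 1, 14.8%, and above that of K700E replicate 2. On donor reads the intervals therefore overlapped. These intervals cover counting error only and are no test between the groups. The event was named for its 150 reads over the 8 libraries, of which the libraries labelled K700E held 27, 21, 2 and 89. At day 8 skipping was 5.33% (2 reads, 1.46% to 17.3%) and 12.2% (89 reads, 10.0% to 14.8%) in the libraries labelled K700E, against 0% (upper bound 3.93%) and 8.06% (11 reads, 4.58% to 13.9%) in those labelled WT. The library at 0% is 1 of the 2 that listed few rare junctions, and the part of that in this value was not tested. In the order of cryptic use, skipping of exon 28 was 0% in the 3 libraries with 0%, 1.20% and 1.80%, then 5.33% at 1.89%, and 12.2%, 8.06%, 22.3% and 22.8% at 17.0%, 18.5%, 18.7% and 18.9%.

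Exon 29 did not share this order. It was skipped in 9.80% and 5.56% of spliced transcripts in the K700E libraries of day 4, against 0% (upper bound 25.9%) and 15.2% in the WT libraries, where the last value rests on 5 skipping reads. At day 8 it was skipped in 17.1% and 5.31% in the libraries labelled K700E, against 4.42% and 7.91% in those labelled WT. The groups overlapped at both days. The most read alternative junction of ITGA2B, with 173 reads in all, joined the first donor to an unannotated acceptor inside intron 1, at 44389016. It took 6.05% and 8.33% of that donor's reads in the K700E libraries of day 4, against 1 of 22 and 1 of 37 reads in the WT libraries. At day 8 it took 13.2% and 5.60% in the libraries labelled K700E, against 4.96% and 16.9% in those labelled WT, and the groups overlapped.

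In RUNX1 the alternative reads were led by 2 annotated exon-skipping junctions. One left out exon 7 of the reference transcript, 192 coding bases (chromosome 21, 34834410 to 34834601, minus strand), and the other exon 3, 39 coding bases (chromosome 21, 34892925 to 34892963). Exon 3 is shown because its skipping spans the widest range of the RUNX1 events, with the exon in capitals and 20 bases of each neighbouring exon in lower case.
RUNX1 exon 3: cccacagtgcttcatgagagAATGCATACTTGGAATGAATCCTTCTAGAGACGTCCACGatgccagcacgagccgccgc

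Exon 3 was skipped in 26.3% and 35.3% of spliced transcripts in the K700E libraries of day 4, against 24.3% and 19.8% in the WT libraries. Both K700E values lay above both WT values, but the Wilson intervals, 20.6% to 32.8% for the lower K700E library and 18.1% to 31.8% for the higher WT library, overlapped. At day 8 it was skipped in 25.3% and 28.4% in the libraries labelled K700E, against 8.67% and 24.3% in those labelled WT. The low value belongs to WT day 8 replicate 1, the library with the most RUNX1 reads. Exon 7 was skipped in 9.85% and 10.2% in the K700E libraries of day 4, against 11.9% and 9.03% in the WT libraries, and the groups overlapped. At day 8 it was skipped in 18.9% and 16.5% in the libraries labelled K700E, against 11.2% and 16.9% in those labelled WT. The third junction, from an unannotated donor at 34887290 to a reference acceptor, had 0 to 36 reads in a library, with 36 in WT day 4 replicate 2.

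**Figure D4:**
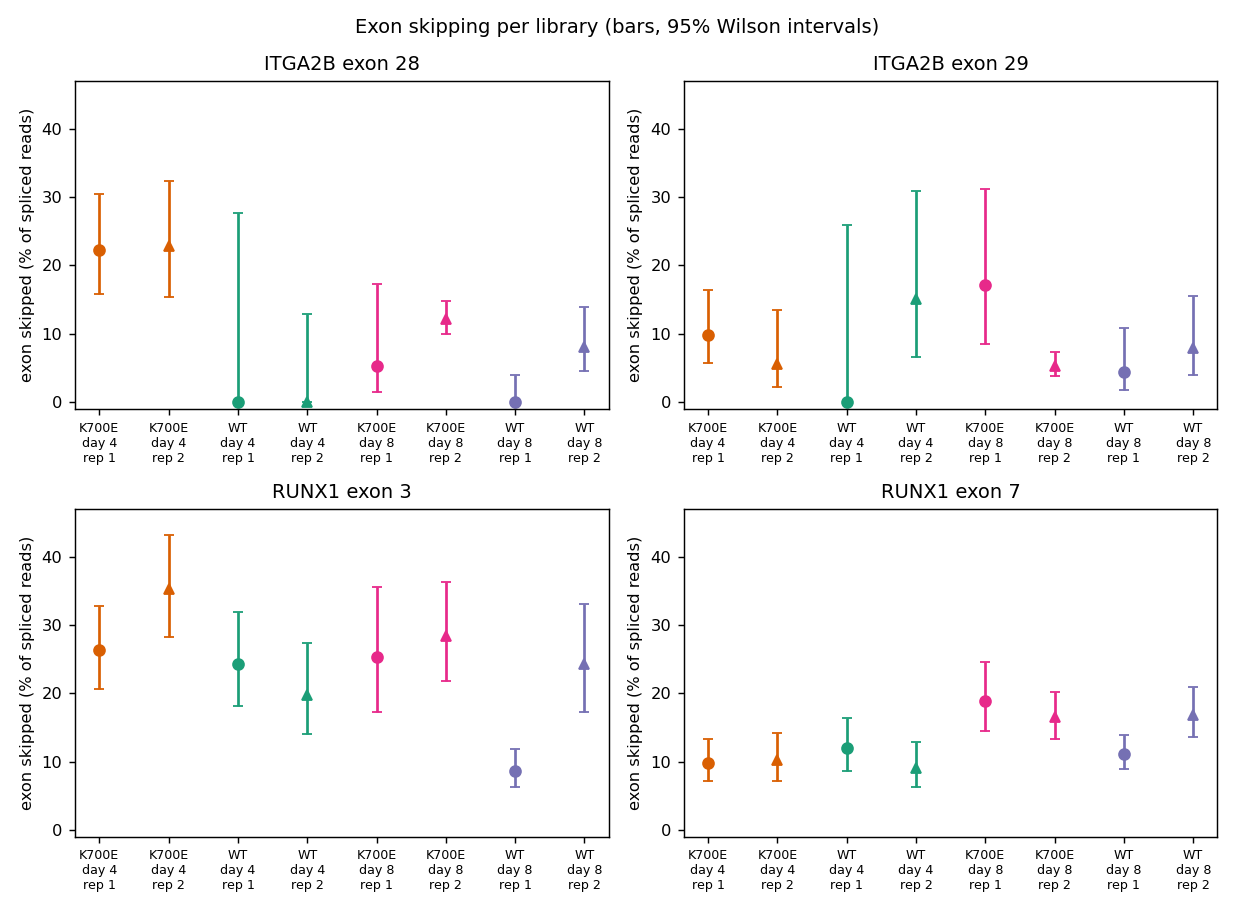
Share of spliced transcripts that skip ITGA2B exons 28 and 29 and RUNX1 exons 3 and 7, in percent, in each library, with 95% Wilson intervals that cover counting error only. ITGA2B exon 28 stands at 22.3% and 22.8% in the K700E libraries and at 0% in both WT libraries of day 4, with wide intervals in WT; RUNX1 exon 7 and ITGA2B exon 29 overlap between the groups.

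The other 4 genes had few alternative reads. In ITGB3 the 2 alternative junctions had 7 and 6 reads in all, and the second skipped exon 14, which encodes the membrane-spanning segment of the β3 chain, with 0 and 3 reads in the K700E libraries of day 4, against 0 and 0 in the WT libraries. In THBS1 skipping of exon 10 (174 coding bases) was read 3 and 2 times in the K700E libraries of day 4, or 3.39% and 3.45%, against 0 and 0 times in the WT libraries, where THBS1 had too few reads to set a useful bound. In FLI1 skipping of exon 6 (66 coding bases) was read 10 times, in K700E day 4 replicate 2 only, at 3.21%. Of the 3 most read alternative junctions of CD9, with 6, 5 and 3 reads in all, each was seen in a single library.

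Promoter sequences were at hand for ITGA2B, THBS1, CD9 and RUNX1 and not for ITGB3 and FLI1. Those of ITGA2B and THBS1, whose levels were far apart between the groups at day 4, were picked. They are shown from RefSeq on GRCh38.p14, from 250 bases before to 50 after the RefSeq start, 5′ to 3′ on the gene's strand, with matches to GATA and ETS motifs in capitals. ITGA2B is chr17:44389600-44389899, minus strand, where the RefSeq start, 44389649, lies upstream of the 5′ end of the gene in GENCODE, 44389505. THBS1 is chr15:39580829-39581128, plus strand.
ITGA2B promoter: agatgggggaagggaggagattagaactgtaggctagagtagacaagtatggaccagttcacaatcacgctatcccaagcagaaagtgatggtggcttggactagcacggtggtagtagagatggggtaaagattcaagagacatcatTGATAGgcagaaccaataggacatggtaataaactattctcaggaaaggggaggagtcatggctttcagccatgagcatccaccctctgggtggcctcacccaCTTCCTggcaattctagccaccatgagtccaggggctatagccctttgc
THBS1 promoter: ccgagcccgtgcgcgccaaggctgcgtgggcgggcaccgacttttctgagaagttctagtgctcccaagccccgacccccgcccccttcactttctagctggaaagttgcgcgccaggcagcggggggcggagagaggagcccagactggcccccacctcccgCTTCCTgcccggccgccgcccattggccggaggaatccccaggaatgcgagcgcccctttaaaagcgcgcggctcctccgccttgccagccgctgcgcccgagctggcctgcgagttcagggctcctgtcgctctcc

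The motif searched on both strands for GATA factors was AGATAA, with AGATAG as a second form of the motif, TGATAA as another form and TGATAG as the last form. For ETS factors such as FLI1 it was AGGAAG, with CGGAAG as its other form. For RUNX factors it was TGTGGT, with TGCGGT as its other form. The ITGA2B window held TGATAG at position -102 and, on the other strand, an ETS match at 2, counted from the RefSeq start. The THBS1 window held an ETS match on the other strand at -87. In the windows of CD9, whose groups overlapped at day 4, GATA matches stood at -200 and -178, an ETS match at -247 and a RUNX match at -65. Each is counted from the start of its own window's transcript. The only RUNX1 window at hand, with its start at 34888699, held no match. That start lies inside intron 3 of the reference transcript, 34887097 to 34892924, and the start of the reference transcript itself was not searched. Among 35116 windows of the same length, 25.0% held a GATA match, 46.9% an ETS match and 19.6% a RUNX match. A match is a description and says nothing of binding.

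The wider set of megakaryocyte genes, which leaves out the 6, moved in both directions. Of 22 tested surface receptors none passed edgeR's adjusted p at day 4, and the median log2 change was 0.21, against 0.02 over all genes tested. Both K700E libraries lay above both WT libraries in CPM for 11 of the 22 and below for 3, against 35.2% and 20.7% of all tested genes. Of 15 granule and secreted proteins none passed, with a median of -0.26, and 2 lay above and 6 below in this way. None of 25 cytoskeleton and integrin activation genes passed, with a median of 0.05, 11 above and 6 below. None of 26 transcription factors passed, with a median of 0.06, 9 above and 6 below. DESeq2 called 4, 5, 8 and 4 genes of the 4 lists, counted among the genes that passed edgeR's filter. It called 7.76% of all 19722 genes with a read at day 4, which include genes of low count. Its share among the filtered genes alone was not computed, so these values cannot be set against each other. With no adjustment 7, 7, 10 and 10 genes of the 4 lists had a p under 0.05, as did 2979 of all 13991 genes.

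**Figure D5:**
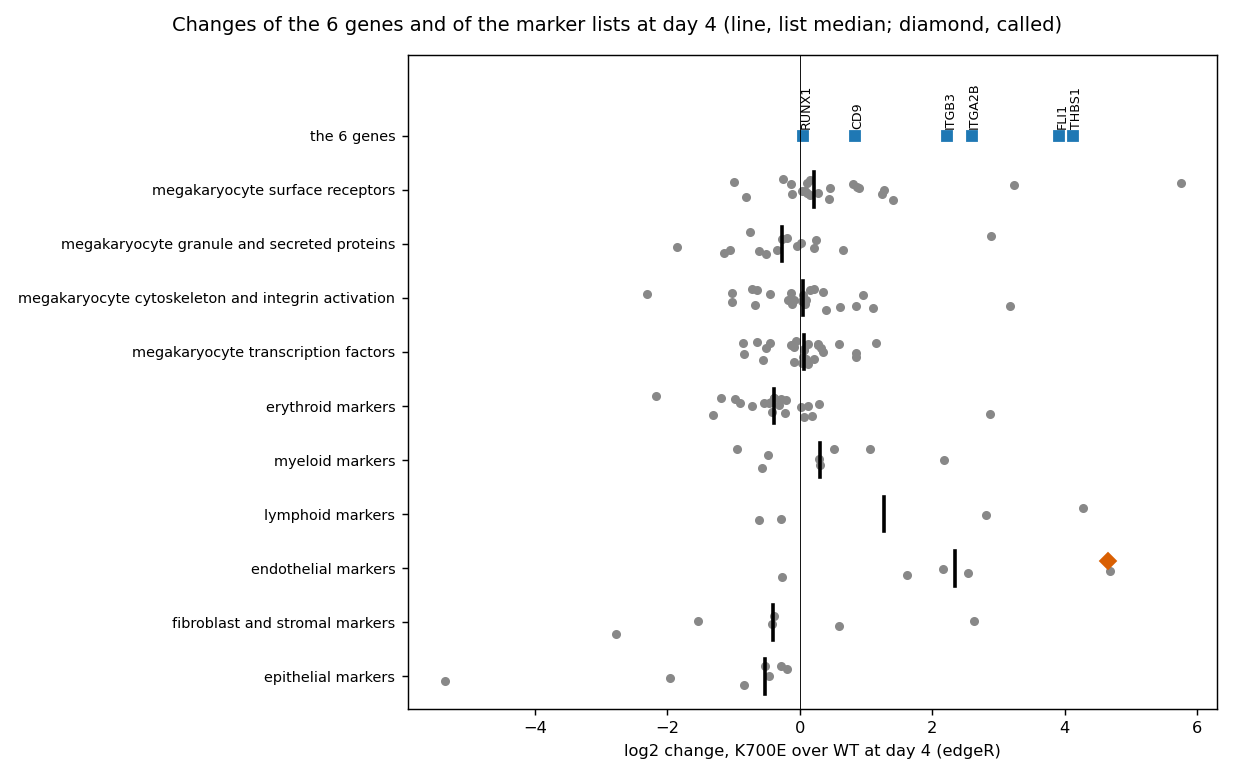
Log2 change between K700E and WT at day 4, fitted with edgeR, for the 6 genes (squares, with shared introns counted to ITGB3) and for each tested gene of 10 marker lists (points), with a vertical line at each list's median and diamonds for genes past an adjusted p of 0.05. ITGA2B, ITGB3, THBS1 and FLI1 lie between 2.23 and 4.13, while the medians of the 4 megakaryocyte lists lie between -0.26 and 0.21.

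Some platelet genes had their highest value in the library with the most FLI1, and others named below, such as FERMT3 and CD226, did not. The share of all genes that were highest in that library was not counted, and a part of FLI1 was not tested. SELP, the granule adhesion receptor P-selectin, had 1.05 and 13.9 CPM in the K700E libraries of day 4, against 0 and 0.245 in the WT libraries. PLEK, the protein kinase C substrate pleckstrin of platelets, had 2.28 and 14.5 in the K700E libraries, against 0.591 and 1.14 in the WT libraries. As with FLI1, K700E replicate 2 held most of these reads, and the groups did not overlap, which the rule for naming uncalled genes requires. PPBP and MMRN1, named after their values were seen, and PECAM1, from the endothelial list, were also highest there, at 1.59, 2.38 and 14.4 CPM. PF4, VWF, F13A1 and F5 had at most 0.121, 0.164, 0.0405 and 0.212 CPM in any of the 8 libraries, and GP1BB, GP5, P2RY1 and P2RY12 had no junction read.

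Other genes near the integrin pair in function varied in their own ways. FERMT3, kindlin-3, which activates platelet integrins, had 200 and 80.6 CPM in the K700E libraries of day 4, against 60.0 and 60.4 in the WT libraries. ENG, an accessory receptor for TGF-β, had 3.50 and 2.43 in the K700E libraries, against 1.49 and 0.816 in the WT libraries. CD226, an adhesion receptor of platelets and lymphocytes, had 31.3 and 9.11 in K700E, against 6.81 and 7.37 in WT. The groups were apart in each case, which the rule for naming uncalled genes requires. Of all tested genes 35.2% were higher in this way. None of the 3 passed edgeR's adjusted test with all 4 libraries, with adjusted p of 0.201, 0.18 and 0.23, and DESeq2 called FERMT3 (adjusted p 0.0274) and CD226 (0.0394). Their log2 changes were 1.61, 1.49 and 2.02 without K700E replicate 2, against 0.333, 0.993 and 0.271 without K700E replicate 1. With all 8 libraries in 1 model edgeR called none of them, with adjusted p of 0.603, 0.867 and 0.498.

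Both K700E libraries of day 4 lay below both WT libraries for some megakaryocyte genes. None of these passed edgeR's adjusted test in its main form, with annotated junctions, a filter, no block and ITGB3's shared introns left out. The naming rule takes uncalled genes only where the groups are apart, and 20.7% of all tested genes were lower in this way. FN1, fibronectin, had 106 and 159 CPM in the K700E libraries, against 475 and 421 in the WT libraries, with edgeR a change of -1.85 on the log2 scale (SE 0.23) at an adjusted p of 0.0505. It passed with the shared introns counted to ITGB3 (0.0498), with the replicate number as a block (0.0488) and with DESeq2 (1.59e-11). With edgeR it also passed with unannotated junctions summed too (0.0475) and without a filter on low counts (2.33e-07). With edgeR it did not pass with RLE factors (0.054), library size only (0.0529) or all 8 libraries in 1 model (0.147). Its log2 change was -1.80 without WT replicate 1 and -1.92 without WT replicate 2. These fits hold 1 WT library each, and their size of change does not mean that FN1 passed in them. VEGFA, the endothelial growth factor, had 131 and 65.8 in K700E, against 225 and 178 in WT, and PDGFA had 4.36 and 3.16 in K700E, against 7.16 and 7.47 in WT. MYL9, a myosin light chain, had a log2 change of -2.31 (SE 0.63). Among transcription factors, NFE2, which drives platelet formation, had a log2 change of -0.86 (SE 0.34), while ZFPM1, the GATA1 partner FOG1, had 1.15 (SE 0.32) and MEIS1 0.85 (SE 0.27). DESeq2 called VEGFA, PDGFA, MYL9, ZFPM1 and MEIS1, with adjusted p from 0.00599 to 0.033, and not NFE2 (0.0821).

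Markers of other lineages were read for comparison. TEK, the angiopoietin receptor of endothelial and stem cells, was the 1 gene of the marker lists of other cell types that passed edgeR's adjusted test, with 3.01 and 5.25 CPM in the K700E libraries of day 4, against 0.197 and 0.109 in the WT libraries, with edgeR a change of 4.66 on the log2 scale (SE 0.53) at an adjusted p of 0.043. Its adjusted p was 0.434 without WT replicate 1, 0.433 without WT replicate 2, 0.433 with all 8 libraries in 1 model and 0.0548 with the replicate number as a block. Of 6 tested endothelial markers 5 had both K700E libraries above both WT libraries, among them TIE1, KDR and PECAM1, against 35.2% of all tested genes, while CDH5, ROBO4 and CLDN5 had no junction read in any library. The 10 endothelial markers summed to 14.6 and 25.8 CPM in the K700E libraries of day 4, against 7.11 and 4.91 in the WT libraries. Their part in the levels of the 6 genes was not tested. Of 22 tested erythroid markers 16 had a negative log2 change, with a median of -0.39, against 0.02 over all genes tested. The share of all genes with a negative change was not counted. In CPM at day 4, 0 of the 22 lay above and 7 below, against 35.2% and 20.7% of all tested genes. None passed edgeR's adjusted test. DESeq2 called 2 lower, and it called 7.76% of all genes with a read, which include genes of low count. ALAS2, the erythroid enzyme of haem synthesis, had a log2 change of -1.19 (SE 0.41). Of 7 tested epithelial markers 0 lay above and 5 below in CPM, with a median log2 change of -0.53. DESeq2 called 3 of them, all lower, and edgeR none. Of 8 myeloid, 4 lymphoid and 6 fibroblast and stromal markers tested, 3, 2 and 1 lay above and 1, 0 and 1 below.

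By the rule set for likeness, the 5 genes whose TMM-normalised log2 CPM was closest to that of ITGA2B over the 8 libraries, among 9246 genes with a mean of at least 5 CPM were PSMD2 (r 0.97), CKLF (0.95), BABAM1 (0.95), GALNT12 (0.94) and PSMB6 (0.94). These are values over 8 libraries with no test, and their ranges were narrow, from 1.81-fold for PSMD2 to 4.10-fold for CKLF between the lowest and the highest library. CD9 had rank 762, THBS1 rank 1111, RUNX1 rank 1836 and FLI1 rank 3336. ITGB3 was below that mean on its unshared introns alone and so was not ranked. With the shared introns counted it had r 0.941 on this TMM-normalised scale, above the 0.935 of PSMB6. On CPM without TMM factors its r was 0.95.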

How the data were processed

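Total RNA of K562 cells was sequenced from strand-specific libraries, per the labels' protocols. Per the submitters' processing notes, cutadapt trimmed the reads and STAR mapped them to hg38; STAR's version was 2.7.0e, with GENCODE release 29 in the index and release 22 added at mapping, per the file headers. The authors' deposited values are counts of uniquely and multi-mapped reads on each splice junction, not normalized. Only spliced genes are measured, and depth was the total of unique junction reads.

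Unique reads were summed over junctions that GENCODE release 29 assigns to 1 gene; introns of several genes (4.17% of reads) were left out, except those of ITGB3, counted for its levels. Genes passing edgeR's filter were tested at each day alone with edgeR 4.0.16 (quasi-likelihood, TMM), with Benjamini-Hochberg adjusted p under 0.05. Acceptor use was tested with diffSpliceDGE for junctions with 5 reads in 2 libraries at donors with a mean of 20 reads, with adjusted p under 0.05 and a change of 5 percentage points. The share of skipping is skipping reads over skipping reads plus the mean of both flanking introns, with Wilson intervals (scipy 1.17.1). Alternatives were DESeq2 1.42.0, limma 3.58.1, RLE or no factors, no filter, a replicate block, 1 library left out, all 8 libraries in 1 model and other junction sets. The gene and acceptor tests were run on simulated data, as a check of the code. For genes the simulated spread between libraries was smaller than the coefficient of variation edgeR fitted here, 0.277 at day 4 and 0.516 at day 8. The simulation therefore does not show how well the tests perform on these libraries. The members, marker lists and the named-gene rule (called genes and up to 3 others per list whose groups do not overlap) were chosen with earlier results of these data known. TMM factors differ little from 1, between 0.954 and 1.05 at day 4.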

Additional observations from a re-analysis of the deposited data

Results flagged for a closer look

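None of the 6 genes had its K700E libraries above both WT libraries at 1 day and below both at the other. Of the marker genes named by rule, 7 did. CD226, an adhesion receptor, had a log2 change between K700E and WT of 1.40 at day 4 and -0.90 at day 8. MEIS1, a homeobox factor, had 0.85 at day 4 and -0.84 at day 8. FN1, fibronectin, went the other way, with -1.85 at day 4 and 0.70 at day 8, as did ALAS2 with -1.19 and 0.77. The epithelial markers KRT18 and CLDN7 had -0.84 and -1.96 at day 4 and 0.88 and 0.85 at day 8. ELF3, also an epithelial marker, had 0.463 and 0.0152 CPM in the K700E libraries of day 4, against 14.0 and 5.07 CPM in the WT libraries, and a log2 change of 1.93 at day 8. The lower K700E value of ELF3 is under the 3-read floor of its library, so no fitted change is given for day 4. None of the 7 passed edgeR's test of the difference between the days, with adjusted p from 0.214 to 0.541. At day 8 the cryptic acceptor use of 2 of the 4 libraries, K700E replicate 1 and WT replicate 2, went against their labels. Of 141 tested marker genes, 18 had groups apart at both days, 14 in opposite directions and 4 in the same. Of all 13991 genes tested at day 4, 16.4% were apart at both days, 8.37% in opposite directions and 8.07% in the same.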

How the results depend on the processing

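At day 4 the count of genes past the threshold, 74 with edgeR, was 1530 with DESeq2, 1567 without a filter on low counts, 126 with the replicate block and 0 with all 8 libraries in 1 model. With 1 library left out it was 0 to 2536, with 0 without WT replicate 1 and 0 without WT replicate 2, and 2536 and 1255 without K700E replicates 1 and 2. RLE factors, library size only, summing unannotated junctions and counting the shared introns to ITGB3 gave 67 to 81. At day 8 the count of 0 became 27 with DESeq2 and was 0 under the others run. The count of acceptors, 327, was 8 to 110 with 1 library left out, at 25 and 8 without WT replicates 1 and 2 and 110 and 74 without K700E replicates 1 and 2. Groups shared replicate numbers, with 2 pairs a day. Deviations of same-numbered libraries correlated at 0.208 at day 4 and 0.329 at day 8, which does not establish pairing with 2 pairs, and the replicate block gave 247 acceptors at day 4 and 0 genes at day 8. ITGA2B kept its direction, at 2.23 to 3.07 on the log2 scale with 1 library left out. CD9, at 0.83, ranged from -0.047 without K700E replicate 1 to 1.36 without K700E replicate 2. Of 468 values for 39 named genes, 1, that of CD9, reversed its direction. The 39 are the 6 genes, chosen on this contrast, and marker genes named by calls or groups apart at day 4. Their kept directions are therefore a description and no support. Cryptic acceptor use 1 to 50 nt upstream was 25.7% and 24.2% in the K700E libraries of day 4. With only junctions of at least 5 reads in 2 libraries, the alternative share of the 6 genes was 1.85% and 1.58% in K700E and 3.45% and 3.67% in WT at day 4, and 2.73% and 1.05% in the libraries labelled K700E and 2.44% and 2.27% in those labelled WT at day 8. The causes were not tested. Depth limits low values, as 3 reads in a library equal 0.0386 to 0.0608 CPM.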
